A study of Mus musculus with 11 samples.

Results

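The miR-10, miR-99 and miR-100 family was followed in mouse embryonic stem cells that differ in DGCR8, which guides the nuclease Drosha to miRNA hairpins. Its members were taken by name and are 7 mature miRNAs of the 1966 listed, which the count table calls mmu-miR-10a-5p, mmu-miR-10a-3p, mmu-miR-10b-5p, mmu-miR-99a-5p, mmu-miR-99b-5p, mmu-miR-99b-3p and mmu-miR-100-5p. The family was chosen by a measured value, the level of miR-10a-5p, which was higher in cells without DGCR8 than in cells with DGCR8 E518K, a glutamate-to-lysine change known from Wilms tumours. The level of miR-10a-5p and every difference between knockout and E518K are therefore descriptions with no test.

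The study held 11 libraries in 5 groups, all from stem cells with the same strain entry, grown without feeder cells in serum-containing 2i medium (CHIR99021 and PD0325901) with LIF. The knockout (KO, genotype DGCR8 -/-) was non-transfected and had 3 libraries, whose titles all name clone 261, so that they are samples of 1 clone. The wild-type cells (DGCR8 wt/wt) carry pSB ET iE-FlagDGCR8-wt and the E518K cells (DGCR8 E518K/E518K) carry pSB ET iE-FlagDGCR8-E518K, and both had also received pCMV(CAT)-SB100X. The labels' genotype entries do not say whether these cells also keep a DGCR8 gene of their own. Induced libraries came from wild-type clones 10, 12 and 16 and E518K clones 8, 13 and 15 after 300 ng/mL doxycycline for 48 h, and the KO cells received the same treatment. Wild-type clone 10 and E518K clone 8 each also gave 1 library without doxycycline, made to show leaky expression of the vectors. Nothing in the labels says that the 3 KO samples came from separate cultures, so their p-values may measure technical spread only.

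Most miRNAs are cut from a primary transcript by the microprocessor, in which DGCR8 binds the hairpin and Drosha cleaves it, and Dicer then releases a duplex of a 5p and a 3p strand. The miR-10 family is ancient in animals. Mir10a and Mir10b lie within the Hox gene clusters that pattern the body axis, and the family is best known from mesodermal, vascular and differentiating tissue rather than from pluripotent cells. Mir99a, Mir99b and Mir100 each lie upstream of a let-7 and a miR-125 hairpin, a grouping that is kept across animals. A miRNA recognises its targets mainly through its seed, bases 2 to 8.

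The mature sequences show how close the members are, and that the family has 2 seeds on its 5p strands and not 1. RefSeq (GRCm38.p6) held all 7. They are written 5′ to 3′ with the seed in capitals:
miR-10a-5p: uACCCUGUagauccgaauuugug
miR-10b-5p: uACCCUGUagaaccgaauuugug
miR-99a-5p: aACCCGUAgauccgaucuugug
miR-100-5p: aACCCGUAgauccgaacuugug
miR-99b-5p: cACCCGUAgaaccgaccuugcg
miR-10a-3p: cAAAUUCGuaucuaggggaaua
miR-99b-3p: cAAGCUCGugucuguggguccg
The miR-10 seed ACCCUGU was shared by 2 of 1679 mouse mature miRNAs, miR-10a-5p and miR-10b-5p, and the miR-99 seed ACCCGUA by 3, miR-99a-5p, miR-99b-5p and miR-100-5p. miR-10a-5p and miR-99a-5p also shared the run GUAGAUCCGA, which starts within the seed, at base 7 of the former and at base 6 of the latter. Counted from the 5′ end, miR-10a-5p and miR-10b-5p differ by 1 substitution, U12A. miR-99a-5p and miR-100-5p also differ by 1, U16A. miR-99a-5p and miR-99b-5p differ by 4, which are A1C, U11A, U16C and U21C. Reads with 1 mismatch could be assigned to either miRNA of the near-identical pairs, and the labels do not state how such reads were counted. No member had another miRNA with the same counts within 2% in every library.

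The hairpins lie on 5 chromosomes of GRCm38.p6, all on the plus strand. Mir10a (chromosome 11, 96317165 to 96317274) overlaps no other GENCODE gene and ends 992 bases before Hoxb4. Mir10b (chromosome 2, 74726070 to 74726137) lies in an intron of Hoxd3 and of Hoxd4. Mir99a (chromosome 16, 77598936 to 77599000) lies in an intron of the long RNA Mir99ahg, opposite an intron of Gm11146, with Mirlet7c-1 656 bases and Mir125b-2 47272 bases downstream. Mir99b (chromosome 17, 17830188 to 17830257) lies in an intron of Spaca6, with Mirlet7e 94 bases downstream and Mir125a 367 bases beyond that. Mir100 (chromosome 9, 41531425 to 41531504) lies in introns of 3110039I08Rik and Gm49317, opposite an exon of Gm48742, with Mirlet7a-2 5211 bases and Mir125b-1 50421 bases downstream.

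The stretch between the 2 mature strands forms the loop end of a hairpin, where DGCR8 is known to bind and where the motif UGU (searched on the RNA strand, in capitals) is known to help positioning. RefSeq gave this stretch for 4 of the hairpins:
Mir10a: uaaggaauuuUGUgguca
Mir10b: ugguacccacauaguca
Mir99a: gugaaguggaccgcg
Mir100: cugauucugcac
Of these, Mir10a alone held UGU, which 31.5% of 644 mouse hairpins with both strands in RefSeq held in this stretch. The 4 stretches were 12 to 18 bases long, beside a median of 16.

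The KO libraries were the smallest, with 166676 to 208846 miRNA counts in all, and the untreated E518K library had 264507. Induced E518K libraries had 1050564 to 1797240, the untreated wild-type library 1421247 and induced wild-type libraries 3394216 to 6128734. Of the 1966 miRNAs 1347 had a count and 730 passed the low-count filter, among them 6 of the 7 members. Levels below are CPM after TMM scaling (scaled CPM), in which 1 count was worth 0.185 to 0.491 in induced wild type, 0.655 to 1.01 in induced E518K and 2.13 to 3.05 in the KO. The scaling sets all differences given here. The median log2 difference of all tested miRNAs between KO and induced wild type was -3.54 with TMM, -3.11 with DESeq2, -3.49 with RLE size factors, -2.03 with total counts, -5.19 with the authors' pRPM scaling and -8.23 when 13 miRNAs that bypass DGCR8 (such as miR-320-3p and miR-484) set the scale. For induced E518K against induced wild type the same medians were -0.14, -0.30, -0.29, 0.21, -0.19 and -2.90. The marker miRNAs of embryonic stem cells, 11 of the miR-290 and miR-302 clusters, summed to between 248819 and 479322 scaled CPM in induced wild type and between 128250 and 244724 in induced E518K. In the KO they summed to between 547 and 1706, and miR-302a-3p, miR-302b-3p and miR-302d-3p were at 0. These markers themselves need DGCR8, so they do not check the cell type there.

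The family made up a larger share of the miRNA counts in the KO than in either induced group, and its make-up differed too. It held 1.32% ± 0.221 of the miRNA counts in the KO, 0.263% ± 0.0469 in induced wild type and 0.0887% ± 0.0135 in induced E518K (SD, n = 3 each). The untreated libraries, 1 per line, stood at 0.636% (E518K) and 0.162% (wild type). The 3 induced groups did not overlap in this share. Without the miR-290 cluster in the denominator the shares were 1.32% in the KO, 0.589% in induced wild type and 0.126% in induced E518K. In the authors' pRPM induced wild type was above the KO, with family sums of 1121 ± 188 in the KO, 2464 ± 441 in induced wild type and 607 ± 92.2 in induced E518K. Raw family counts were in the same order as pRPM, with 1911 to 2644 in the KO, 770 to 1703 in induced E518K and 9736 to 17349 in induced wild type.

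Induced wild-type cells had nearly all of the family as miR-99b. In them miR-99b-5p made up 85.6% ± 1.16 of the family counts and miR-99b-3p 7.38% ± 0.246, while the 4 other 5p miRNAs together took the small remainder. In the KO miR-99b-5p was down to 34.4% ± 2.03, beside miR-100-5p at 26.7% ± 1.13, miR-10b-5p at 17.9% ± 0.585, miR-10a-5p at 14.0% ± 2.51 and miR-99a-5p at 6.45% ± 0.405. In induced E518K miR-99b-5p lay between at 59.5% ± 4.63, and miR-10b-5p at 23.8% ± 3.36 lay above both the KO and induced wild type (4.04% ± 1.54) without overlap. Untreated E518K, at 34.9% miR-99b-5p and 32.2% miR-100-5p, had nearly the make-up of the KO, and untreated wild type, at 67.8% and 7.90%, was closer to induced E518K.

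**Figure D1:**
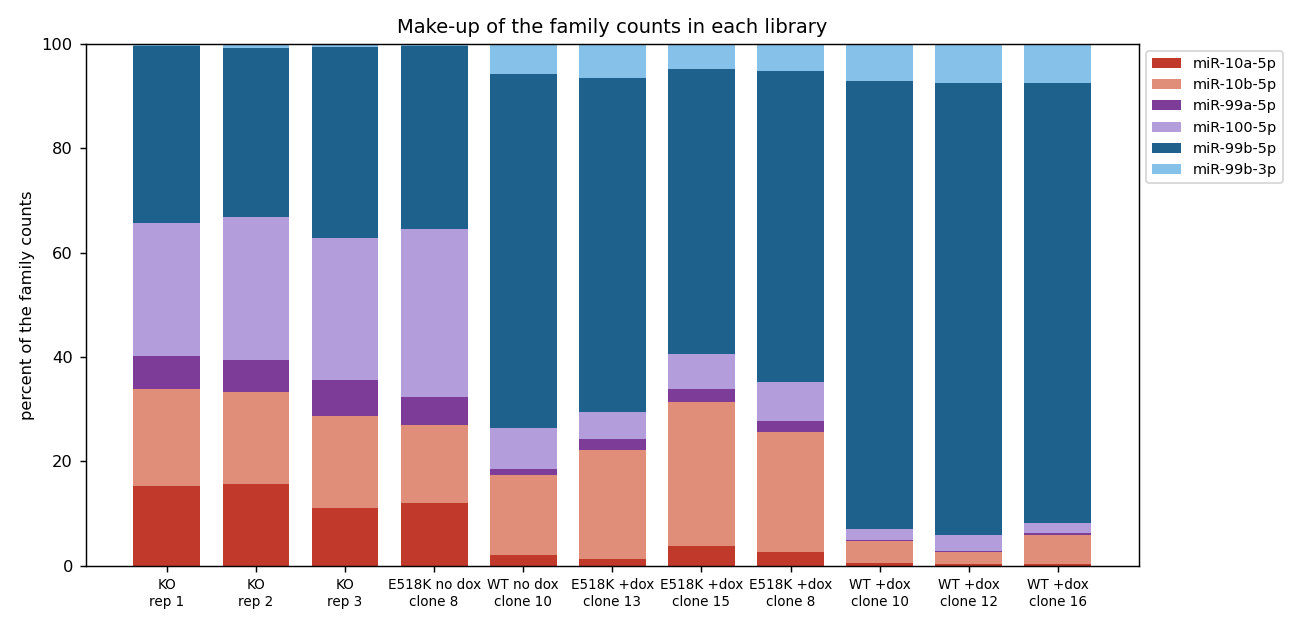
Make-up of the family in the 11 libraries. Each bar is 1 library and shows the percent of its family counts held by 6 members (miR-10a-3p, at 0 to 0.260%, is not drawn), so that scaling plays no part. miR-99b-5p fills 84.3% to 86.5% in induced wild type and 32.5% to 36.5% in the KO.

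miR-10a-5p, the member by which the family was chosen, is a Hox-linked miRNA known from retinoic acid signalling and from vessel walls. It had 406, 406 and 213 counts in the 3 KO libraries, 52, 36 and 67 in induced wild-type clones 10, 12 and 16, and 45, 10 and 54 in induced E518K clones 8, 13 and 15. So the KO libraries had the most counts of it although their totals were the smallest. In scaled CPM these were 866, 1219 and 650 in the KO, 25.5, 10.9 and 12.4 in induced wild type and 29.5, 8.32 and 54.4 in induced E518K. All KO libraries lay above all libraries of the other induced groups, and induced wild type and E518K overlapped. The fitted log2 difference of KO against induced E518K was 4.90 (SE 0.48), and over 6 scalings it ran from 2.46 to 6.26. Against induced wild type the KO was at 5.83 (SE 0.49), and here the scaling by miRNAs that bypass DGCR8 left 0.65 with SE 0.46. In the authors' pRPM unit miR-10a-5p stood at 160 ± 50.3 in the KO, 10.2 ± 4.45 in induced wild type and 16.5 ± 9.77 in induced E518K (SD, n = 3 each).

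**Figure D2:**
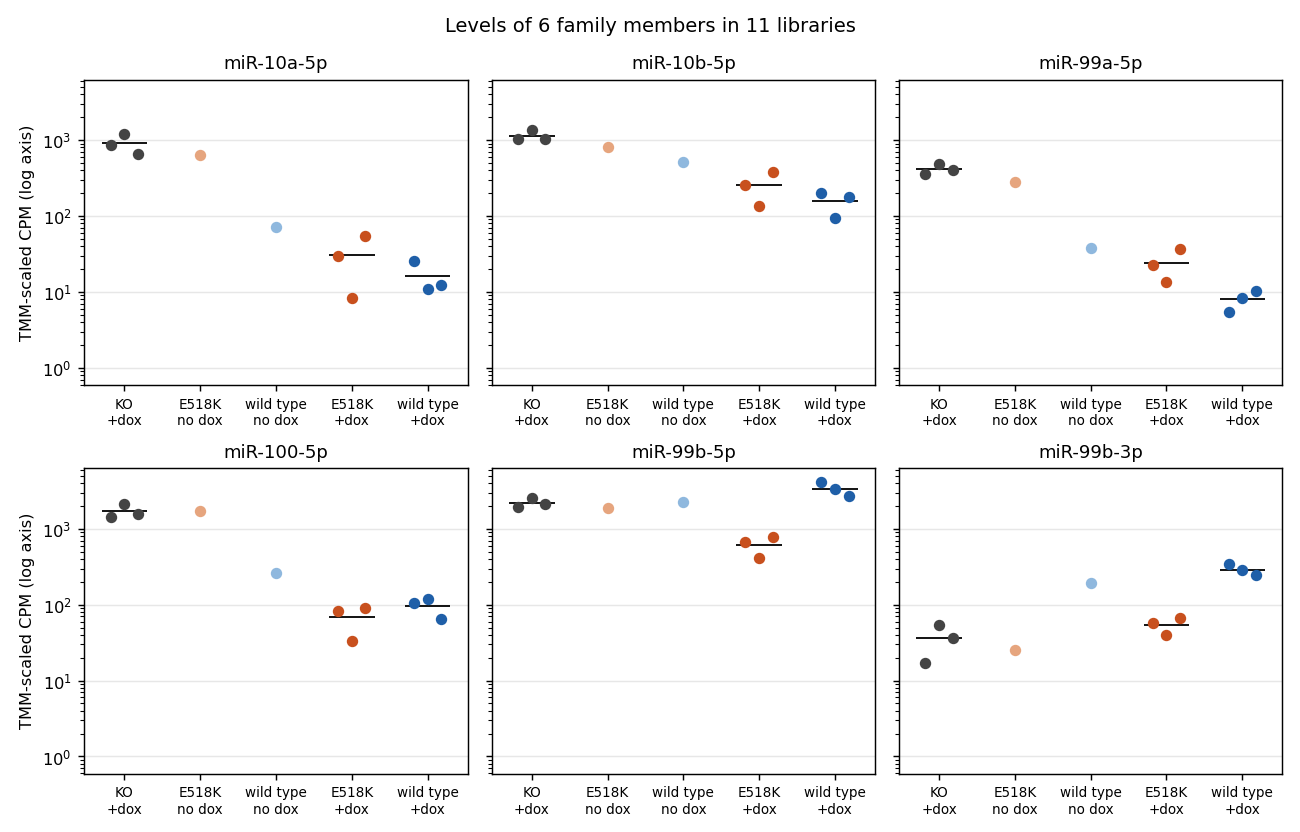
Levels of the 6 members that passed the low-count filter, in TMM-scaled CPM on a log axis. Each point is a library and each line the mean of 3. In the KO miR-10a-5p, miR-10b-5p, miR-99a-5p and miR-100-5p sit above every induced library, while miR-99b-3p (17.1 to 54.1 in the KO) sits below all 3 of induced wild type (243 to 339).

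The other strand of the same hairpin was almost absent. miR-10a-3p had 2 counts in induced wild-type clone 10, 2 in induced E518K clone 13 and 0 in the other 9 libraries, so it was not tested. Its 3 KO libraries had 0 counts beside 213 to 406 of miR-10a-5p. The 3p strands of Mir10b, Mir99a and Mir100 were as scarce, with at most 7 counts in any library and 0 in all 3 KO libraries. Which strand of a duplex is kept is known to differ between hairpins, and the 5p strand is the usual guide of these 4.

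miR-10b-5p, known from developing limbs and from invasive tumour cells, differs from miR-10a-5p by U12A. It had 1049, 1375 and 1026 scaled CPM in the KO, 201, 93.8 and 177 in induced wild type and 257, 134 and 386 in induced E518K. All KO libraries were above both induced groups, which overlapped. The KO was higher than induced wild type (log2 difference 2.87 ± 0.41 SE, edgeR adjusted p = 1.2e-11). The call was lost with the authors' pRPM scaling (0.95, edgeR adjusted p = 0.051). The scaling by miRNAs that bypass DGCR8 turned it to -2.32, called lower in the KO (edgeR adjusted p = 2.8e-08). In induced E518K the value against wild type was 0.72 ± 0.38 (edgeR adjusted p = 0.090), which missed the threshold. It passed without wild-type clone 16 (1.63, edgeR adjusted p = 0.0048), without E518K clone 13 (1.09, 0.018), with total counts (0.96, 0.048) and with counts divided by 2 (0.72, 0.049). With the DGCR8-bypassing list as scale it was -2.02, called lower in E518K (edgeR adjusted p = 1.6e-06). Over 14 alternatives, the turned values included, the edgeR or DESeq2 adjusted p ran from 1.6e-06 to 0.55 in E518K and from 4.1e-18 to 0.051 in the KO.

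miR-99a-5p, known as a brake on mTOR and as a miRNA of resting and differentiated cells, was the least abundant of the tested 5p members. The counts were 166, 160 and 132 in the KO, 11, 27 and 56 in induced wild type and 35, 16 and 36 in induced E518K. In scaled CPM the KO had 354, 480 and 403, induced wild type 5.40, 8.20 and 10.4 and induced E518K 22.9, 13.3 and 36.3. No 2 of these 3 groups overlapped. The KO was higher than induced wild type (log2 difference 5.64 ± 0.51 SE, edgeR adjusted p = 6.1e-26), and with the DGCR8-bypassing list as scale the value was 0.43 (edgeR adjusted p = 0.41). Induced E518K was higher than wild type (1.54 ± 0.47 SE, edgeR adjusted p = 0.0023). This call was lost without wild-type clone 10 (1.23, edgeR adjusted p = 0.055) or E518K clone 15 (1.18, 0.053), and the value was 2.55 without wild-type clone 16. The DGCR8-bypassing list turned it to -1.22, called lower in E518K (edgeR adjusted p = 0.022). Summed with its near-identical miR-100-5p, which had more counts in every library, the E518K value was -0.11 (edgeR adjusted p = 0.84). Over 14 alternatives, the turned value included, the edgeR or DESeq2 adjusted p ran from 0.00023 to 0.055 in E518K and from 6.0e-46 to 0.41 in the KO.

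miR-100-5p, 1 base from miR-99a-5p and likewise known for holding down mTOR and IGF1 receptor signalling, was the second most abundant member in the KO. It had 1431, 2144 and 1587 scaled CPM there, 105, 118 and 64.0 in induced wild type and 82.5, 33.3 and 91.7 in induced E518K. The KO libraries were all above both induced groups, which overlapped. The KO exceeded induced wild type by a log2 difference of 4.17 (SE 0.43, edgeR adjusted p = 2.3e-20). With pRPM scaling it was 2.37 (edgeR adjusted p = 2.9e-06), and with the DGCR8-bypassing list -1.05 (0.014). Between induced E518K and wild type miR-100-5p did not pass (-0.47 ± 0.39, edgeR adjusted p = 0.29). That value was 0.08 without wild-type clone 16, -0.05 without E518K clone 13, -0.29 without wild-type clone 12, -0.09 with total counts, and -3.22 with the list scaling, where it passed. The adjusted p from edgeR or DESeq2 over 14 alternatives ran from 2.1e-12 to 0.94 in E518K and from 5.8e-28 to 0.014 in the KO.

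miR-99b comes from an intron of Spaca6 and was the member with the highest level in wild-type cells. miR-99b-5p had 4102, 3357 and 2711 scaled CPM in induced wild-type clones 10, 12 and 16, 665, 410 and 769 in induced E518K and 1922, 2538 and 2131 in the KO. The 3 groups did not overlap. Induced E518K was lower than wild type by a log2 difference of -2.46 (SE 0.39, edgeR adjusted p = 3.4e-09). All 6 scalings kept this direction, from -5.22 to -2.10, and without wild-type clone 16 the value was -1.83. Between KO and induced wild type miR-99b-5p did not pass with TMM scaling (-0.63 ± 0.37, edgeR adjusted p = 0.10), and the scaling decided its sign. It was 1.01 with total counts (edgeR adjusted p = 0.019), -2.46 with pRPM (6.9e-08) and -5.84 with the DGCR8-bypassing list (2.8e-36). It passed as lower with counts divided by 2 (-1.49, 3.1e-05) and without KO sample 1 (-1.21, 0.0020), and lay at 0.07, 0.11, 0.10 and 0.01 without KO sample 2, KO sample 3, wild-type clone 10 or wild-type clone 12. The adjusted p from edgeR or DESeq2 over 14 alternatives ran from 2.8e-36 to 0.98 in the KO and from 1.9e-30 to 0.00054 in E518K.

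miR-99b-3p, the other strand of that hairpin, was lower in both E518K and KO. Its counts were 691, 958 and 1309 in induced wild type, 88, 48 and 66 in induced E518K and 8, 18 and 12 in the KO. In scaled CPM induced wild type had 339, 291 and 243, induced E518K 57.6, 39.9 and 66.5 and the KO 17.1, 54.1 and 36.6. Both groups lay below every induced wild-type library and overlapped each other. The log2 difference from wild type was -2.41 ± 0.44 SE in E518K (edgeR adjusted p = 2.7e-07) and -3.05 ± 0.49 in the KO (1.3e-09). All 6 scalings kept both directions, from -5.17 to -2.04 in E518K and from -8.30 to -1.43 in the KO. Without wild-type clone 16 the E518K value was -1.78, and without KO sample 3 the KO value was -2.44.

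Of the 5 tested members other than miR-10a-5p, 3 were higher and 1 lower in the KO than in induced wild type, and 1 was higher and 2 were lower in induced E518K. Over all 730 tested miRNAs 88.4% were called in the KO (30.0% higher and 58.4% lower), and 63.6% in E518K (28.2% higher and 35.3% lower). The split moved with the scaling, from 219 higher and 426 lower in the KO to 245 and 319 with total counts and 26 and 536 with the DGCR8-bypassing list. In E518K it moved from 206 and 258 to 227 and 216 and to 12 and 498. The median log2 difference of these 5 was 2.87 in the KO beside -3.54 for all tested miRNAs, and -0.47 in E518K beside -0.14. The 3 KO libraries did not overlap the 3 induced wild-type libraries for any of these 5, 3 with the KO above and 2 below, as for 84.9% of all tested miRNAs (24.9% above and 60.0% below). Induced E518K did not overlap wild type for 3 of them, 1 above and 2 below, beside 64.5% of all (25.8% above and 38.8% below). Both comparisons share the wild-type libraries. Between KO and E518K, where 68.1% of all miRNAs were called (26.2% higher and 41.9% lower) and 67.5% did not overlap (24.8% above and 42.7% below), the fitted differences were 4.64 for miR-100-5p, 4.10 for miR-99a-5p, 2.15 for miR-10b-5p, 1.84 for miR-99b-5p and -0.64 for miR-99b-3p. These 5 are given without a test, and in scaled CPM the first 4 had the KO above without overlap. With pRPM scaling miR-10b-5p was at 0.46 and miR-99b-5p at 0.09, both with overlapping libraries, and with the DGCR8-bypassing list they were at -0.30 and -0.62.

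**Figure D3:**
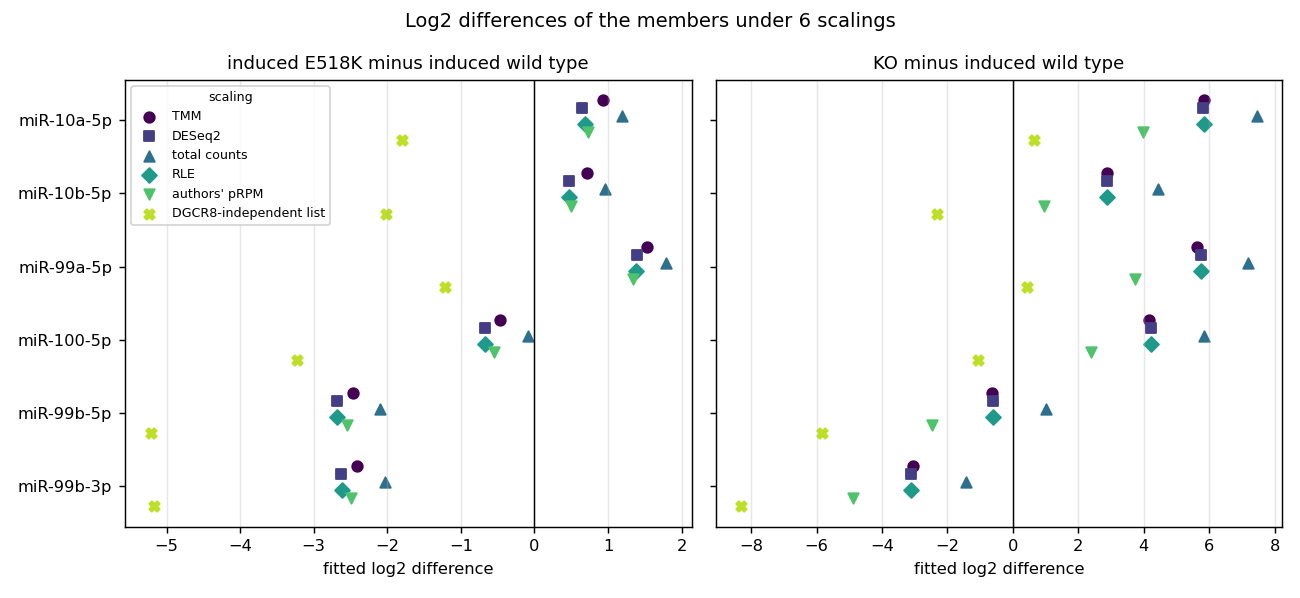
Fitted log2 difference of the 6 tested members under 6 scalings, for induced E518K against induced wild type (left) and KO against induced wild type (right). Within a panel each scaling moves all members by nearly the same amount, so their order stays alike while their side of 0 does not. miR-99b-5p and miR-99b-3p are below 0 under all 6 in the left panel, and miR-10a-5p and miR-99a-5p are above 0 under all 6 in the right panel.

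Ratios of 2 counts within a library need no scaling, and those between different miRNAs were added after the data had been seen. For the strands of miR-99b the 5p to 3p ratio was 12.1, 11.5 and 11.2 in induced wild type, 11.5, 10.3 and 11.6 in induced E518K and 11.7 in the untreated wild-type library. In the KO the ratio was 113, 46.9 and 58.2, and in untreated E518K it was 73.4. The KO and untreated E518K libraries were thus the 4 with a high ratio, and these have 8 to 18 counts of the 3p strand each. The mean log2 ratio of the KO was 2.54 above that of induced wild type, with a two-sided exact permutation p of 0.1, the smallest that 3 against 3 libraries allow (0.2 adjusted over 2 comparisons). For induced E518K the difference was -0.06 (exact permutation p = 0.6), less than the spread between the libraries.

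The ratio of miR-10a-5p to miR-10b-5p, which share a seed but not a locus, split the libraries in the same way. It was 0.634 to 0.886 in the KO and 0.806 in untreated E518K, against 0.0704 to 0.127 in induced wild type, 0.0621 to 0.141 in induced E518K and 0.140 in the untreated wild-type library. The family was chosen by miR-10a-5p being higher in the KO than with E518K. That choice favours this split, which is therefore a description and no separate support. In the ratio of miR-100-5p to miR-99b-5p, which share the other seed, the groups formed 3 levels. These were 0.745 to 0.845 in the KO with 0.923 in untreated E518K, then 0.0811 to 0.124 in induced E518K with 0.116 in untreated wild type, then 0.0236 to 0.0353 in induced wild type. For miR-99a-5p over miR-99b-5p the same 3 levels were 0.184 to 0.189 with 0.152, then 0.0325 to 0.0472, with untreated wild type at 0.0166, then 0.00132 to 0.00383.

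**Figure D4:**
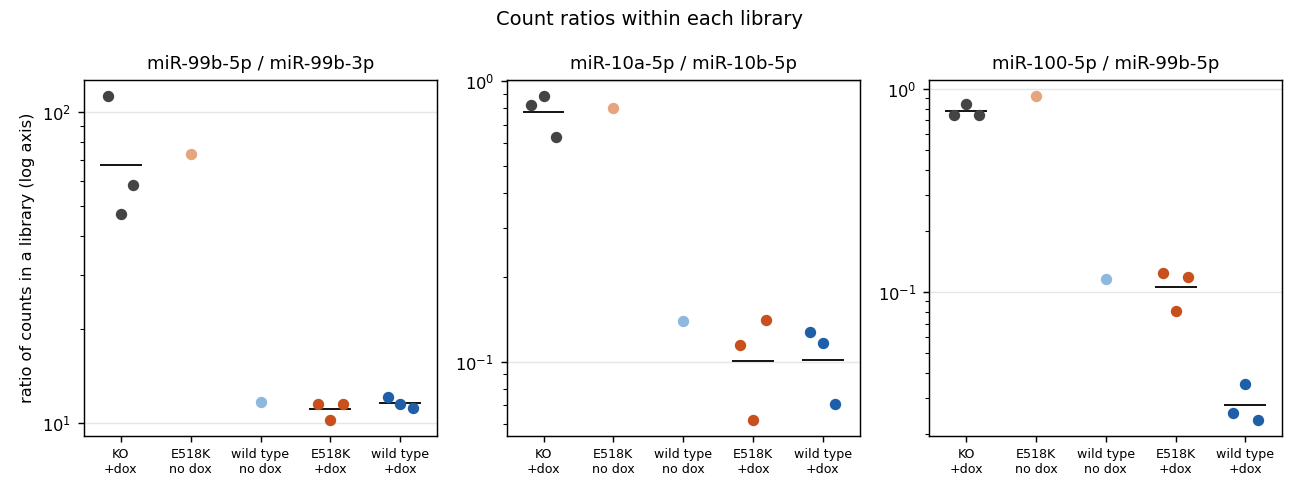
Ratios of counts within each library on log axes, for the strands of miR-99b (left), the pair with the miR-10 seed (middle) and miR-100-5p over miR-99b-5p (right). Points are libraries and lines are means of the log ratio over 3 libraries. The 3 KO libraries and untreated E518K clone 8 lie apart from the other libraries in all 3 panels. The middle panel holds miR-10a-5p, by which the family was chosen.

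Without doxycycline the 2 vector lines stood at different places, with 1 library each, and the levels are given without a test. Untreated E518K clone 8 had 645 scaled CPM of miR-10a-5p (95% exact Poisson interval 526 to 784, counting error only), and the same clone had 29.5 (18.6 to 44.4) after induction, 21.9-fold less. miR-100-5p went from 1723 (1524 to 1941) to 82.5 (63.4 to 106) in that clone, 20.9-fold less, and miR-99a-5p from 283 (206 to 379) to 22.9 (13.5 to 36.4). In pRPM these falls were 6.21-fold for miR-10a-5p, 5.92-fold for miR-100-5p and 3.50-fold for miR-99a-5p. Untreated wild-type clone 10 had lower levels, with 71.5 (46.0 to 106) of miR-10a-5p, 265 (214 to 326) of miR-100-5p and 37.9 (20.2 to 64.9) of miR-99a-5p. After induction that clone had 2.80-fold, 2.54-fold and 7.02-fold less of the 3 in scaled CPM, and 1.64-fold, 1.49-fold and 4.13-fold less in pRPM. By mean scaled CPM, miR-10a-5p, miR-10b-5p and miR-99a-5p ranked the groups as KO, untreated E518K, untreated wild type, induced E518K and induced wild type. The last 2 overlapped for miR-10a-5p and miR-10b-5p. Mean pRPM kept this order for miR-10a-5p only. There miR-99a-5p was higher with E518K induced (13.7) than in the untreated wild-type library (12.5, from 26 counts). Likewise miR-10b-5p in pRPM was higher in the untreated wild-type library (169) than in the untreated E518K library (132).

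miR-99b-5p behaved otherwise. In wild-type clone 10 it was at 2280 (2123 to 2445) without and 4102 (3979 to 4229) scaled CPM with doxycycline, 1.80-fold more (3.06-fold in pRPM). In E518K clone 8 miR-99b-5p was at 1866 (1658 to 2092) without and 665 (608 to 725) scaled CPM with doxycycline. This was 2.81-fold less in scaled CPM but 1.26-fold more in pRPM. The change was not particular to miR-99b-5p, since miR-10b-5p in that clone was 3.11-fold less in scaled CPM but 1.13-fold more in pRPM. miR-99b-3p was higher with doxycycline in both clones, by 1.74-fold in wild type and 2.27-fold in E518K in scaled CPM and by 2.95-fold and 7.99-fold in pRPM, from only 8 counts in untreated E518K. Its intervals in E518K overlapped in scaled CPM, at 25.4 (6.93 to 65.1) without and 57.6 (41.9 to 77.3) with doxycycline. Those in wild type did not, at 195 (151 to 248) and 339 (304 to 377). An interaction term, which takes the spread of the untreated arms from the other groups, called 2 of the 5 members tested, miR-99b-5p and miR-100-5p, and 21.5% of all tested miRNAs. With 1 untreated library and clone per line, line and clone cannot be told apart there.

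The hairpins next to Mir99a, Mir99b and Mir100 give let-7 and miR-125 miRNAs, known as regulators of developmental timing, and 7 of 11 such mature miRNAs were tested. In the KO 3 of 7 were higher and 3 lower than in induced wild type, with a median log2 difference of -0.88, beside 30.0% higher, 58.4% lower and a median of -3.54 over all tested miRNAs. Downstream of Mir99b, let-7e-5p and miR-125a-5p were both lower in the KO with TMM scaling (-0.88 and -1.22, edgeR adjusted p = 0.042 and 0.0063), and miR-125a-3p was at -0.93 (0.33). As a percent of all miRNA counts, let-7e-5p was at 0.0201 to 0.0337 in the KO and 0.0109 to 0.0206 in induced wild type. miR-125a-5p was at 0.0091 to 0.0252 and 0.0108 to 0.0195. Both overlapped in that measure, without a fall in the KO. Their mean pRPM was lower in the KO (23.9 and 16.6) than in induced wild type (154 and 141). From the clusters of Mir99a and Mir100, let-7c-5p (1.47), miR-125b-5p (2.13) and miR-125b-1-3p (1.56) were higher and let-7a-5p (-1.33) lower in the KO with TMM scaling. In mean pRPM let-7c-5p (77.2 in the KO, 101.5 in induced wild type) and miR-125b-1-3p (6.19 and 7.11) were lower in the KO, and miR-125b-5p was at 135 and 112. The KO and induced wild-type libraries overlapped in pRPM for each of them. let-7a, let-7c and miR-125b can also come from other hairpins.

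In induced E518K 4 of the 7 neighbours were higher and 1 lower than in wild type, with a median of 1.32, beside 28.2% higher, 35.3% lower and a median of -0.14 over all tested miRNAs. let-7a-5p was at 3.68, miR-125b-1-3p at 2.69, let-7c-5p at 2.15 and miR-125b-5p at 1.32. These 4 were also higher in mean pRPM, with miR-125b-5p at 275 in E518K and 112 in wild type. Their values with the DGCR8-bypassing list as scale are not given. The median of all tested miRNAs was -2.90 there, so their direction may depend on the scaling. let-7e-5p fell (-1.14 ± 0.41 SE, edgeR adjusted p = 0.010) as both strands of miR-99b did, and miR-125a-5p was at -0.75 (edgeR adjusted p = 0.098). let-7e-5p had 84.9 to 157 scaled CPM in induced E518K and 182 to 384 in induced wild type, without overlap.

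The 5 tested miRNAs with profiles nearest to miR-10a-5p over the 11 libraries were miR-99a-5p, miR-6966-3p, miR-677-5p, miR-100-5p and miR-704. Their root mean square differences from it, on log2 scaled CPM centred on each miRNA's mean, ran from 0.675 to 0.749. The other members were far from it, with 1.40 for miR-10b-5p (rank 110), 2.55 for miR-99b-5p (rank 233) and 3.68 for miR-99b-3p (rank 346). miR-677-5p, the most abundant of the 5, had 1481 to 2205 counts in the KO and 263 to 581 in induced wild type. Over the 5 group means miR-99a-5p was the only one of them among the nearest 5.

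Markers of other cell types were read in the same libraries, since the family is abundant in connective tissue. The summed level of 8 fibroblast or stromal miRNAs, among them miR-143-3p, miR-199a-5p and miR-214-3p, was 5891 to 9679 scaled CPM in the KO. It was 3014 to 4561 in induced E518K, 4994 to 6623 in induced wild type, and 8973 and 8132 in the untreated E518K and wild-type libraries. The ranges of the KO and induced wild type overlapped. In raw counts the sum was 2578 to 3223 in the KO and 13494 to 26937 in induced wild type. miR-199a-3p and miR-199b-3p had linked counts, with 634 and 317 in untreated E518K and 258 and 128 in untreated wild type. The sum may therefore hold the same reads more than once. Of these 8 miRNAs 7 had counts in the KO, where miR-145a-3p was at 0, and single members went either way. miR-199a-5p had 1045 to 1646 scaled CPM in the KO and 309 to 415 in induced wild type, and miR-214-3p 17.1 to 36.0 and 0.982 to 1.85. miR-152-3p had 100.2 to 204 in the KO and 1097 to 1261 in induced wild type, and miR-145a-5p 18.3 to 42.0 and 68.4 to 97.8. The 4 muscle and liver miRNAs summed to between 128 and 216 in the KO, 216 in untreated E518K and between 13.9 and 30.4 in induced wild type. Their raw sums were low and overlapped, with 47 to 72 counts in the KO, 68 in untreated E518K and 32 to 100 in induced wild type. The 6 blood miRNAs were lower in the KO, with 30.5 to 99.1 there and 193 to 394 in induced wild type, and miR-223-3p and miR-144-3p were at 0 in both. The 5 neural miRNAs summed to between 57.6 and 85.5 in the KO and between 3776 and 4959 in induced wild type. The part of RNA from other cells in the family's values was not tested, and in bulk libraries fewer cells of a type and less RNA per cell cannot be told apart.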

How the data were processed

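Small RNA libraries (NEBNext Multiplex Small RNA kit, total RNA) were counted by the authors. They deposited whole-number counts of reads for 1966 mature miRNAs in 11 libraries, not normalized, and the same table in a scaled RPM unit (pRPM, per the file names) in which libraries of a group share 1 total. All pRPM values (100%) were whole multiples of 1 count within 0.01 reads, so the count test on recovered reads is the main test itself. STAR, bedtools and the build GRCm38.p6 appear in the submitters' processing notes, without roles; trimming and the counting rule are not stated there. A file labelled as piRNA counts was identical to the pRPM file and was not used.

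Tests used edgeR 4.0.16 in R 4.3.3 (robust quasi-likelihood fit over 11 libraries in 5 groups, TMM, filterByExpr with minimum count 10 and total 15, Benjamini-Hochberg over 730 miRNAs, threshold 0.05), after a check on simulated counts. Groups without doxycycline have 1 library, assumed to vary like the others. DESeq2 1.42.0 was an alternative, with the other scalings, filters and left-out libraries given at the end. Of the counts from 1 to 40, 90.3% were even, so small RNAs may be counted 2 times; Poisson intervals were taken on counts divided by 2. Reads carry no molecular identifiers, so intervals cover counting error only.

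The named miRNAs are the 7 members, the other strands of their hairpins, the cluster neighbours and the 5 nearest profiles to miR-10a-5p. Members and lists were chosen with earlier results of these data known.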

Additional observations from a re-analysis of the deposited data

Results flagged for a closer look

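An interaction term in the edgeR fit, added after the data were seen, compared the difference between untreated and induced libraries in the E518K and wild-type lines, and 2 of the 5 members tested for it passed. The term called 21.5% of all 730 tested miRNAs. For miR-100-5p the log2 change from untreated to induced was lower in E518K than in wild type by a difference of -3.16 (SE 0.80, edgeR adjusted p = 0.00092), and for miR-99b-5p by -2.17 (SE 0.76, edgeR adjusted p = 0.024). Each untreated arm is 1 library of 1 clone and is assumed to vary like the other groups, so a difference between the lines cannot be told apart from one between single clones or libraries. The miR-100-5p call was lost with pRPM scaling (-2.24, edgeR adjusted p = 0.077) and without wild-type clone 16 (-2.11, 0.076). The miR-99b-5p call was lost with pRPM scaling (-1.26, edgeR adjusted p = 0.33), with wild-type clone 16 left out (-1.03, 0.44) or E518K clone 8 left out (-2.50, 0.068). Over 9 alternatives the edgeR adjusted p ran from 0.00035 to 0.077 for miR-100-5p and from 0.0045 to 0.44 for miR-99b-5p, and all 9 values of each were below 0. The other 3 members tested had 0.08 (miR-10b-5p, edgeR adjusted p = 1.0), -1.36 (miR-99a-5p, 0.34) and 0.53 (miR-99b-3p, 0.84).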

How the results depend on the processing

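Changes came from the scaling, from single left-out libraries and from halved counts, and their cause was not tested. With the DGCR8-bypassing list as scale, E518K against wild type had 12 miRNAs higher and 498 lower (206 and 258 with TMM), and KO had 26 higher and 536 lower against wild type (219 and 426) and 30 and 412 against E518K (191 and 306). The same scaling turned miR-10a-5p (-1.80), miR-10b-5p (-2.02) and miR-99a-5p (-1.22) in E518K against wild type, miR-10b-5p (-2.32) and miR-100-5p (-1.05) in KO against wild type, and miR-10b-5p (-0.30) and miR-99b-5p (-0.62) in KO against E518K. Total counts turned miR-99b-5p in KO against wild type (1.01) and miR-99b-3p in KO against E518K (0.61). KO against E518K had 61 higher and 380 lower with pRPM scaling, 249 and 250 with total counts, and 126 higher with counts divided by 2. Leaving out single libraries gave 164 to 233 lower in E518K against wild type (164, beside 250 higher, without wild-type clone 16) and 124 to 205 higher in KO against E518K (124 without E518K clone 15). It moved miR-99b-5p in KO against wild type between -1.21 and 0.11 and miR-100-5p in E518K against wild type between -0.69 and 0.08 (0.075 without wild-type clone 16). Without the miR-290 cluster in the denominator the family held 0.589% of the counts in induced wild type and 0.126% in induced E518K. With near-identical members summed, which was added after seeing the data, KO against wild type was 4.16 for the miR-10 pair and 4.99 for miR-99a-5p with miR-100-5p. Neither sum passed in induced E518K against wild type. There the miR-10 pair was at 0.76 (edgeR adjusted p = 0.11) and miR-99a-5p with miR-100-5p at -0.11 (0.84). Of the members' values under alternatives, the interaction values and the nearest profiles included, 192 held. These kept their direction and side of the threshold or, where untested, moved by less than the SD between libraries of a group. Of the rest 47 moved further, 14 reversed, 9 passed newly and 9 no longer passed. The strand ratio of miR-10a was not computed, since its 3p strand had 2 counts at most. No paired analysis was possible because the compared groups share no 2 clone numbers.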
